A study of Mus musculus with 13 samples.

Results

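DNA double-strand break repair genes were examined in CD45- thymic stromal cells, the nonhematopoietic fraction of the thymus, before and after sublethal total body irradiation (TBI). The 32 genes were named by symbol from 4 roles and found in the count table of 53379 genes: 11 of homologous recombination, 4 of the Fanconi pathway, 6 of end joining, and 11 of damage sensing and checkpoint signalling. They were divided by general knowledge into 16 replication-linked genes (the recombination and Fanconi genes and Chek1) and 16 constitutive genes (end joining and the remaining sensors). Earlier results of these data were known when the genes and classes were chosen. All 32 were among the 19984 genes that passed the filter on low counts. Bulk RNA-seq was available for wild-type C57BL/6 mice, all 2 months old, with 4 libraries at steady state and 3 from each of days 1, 4 and 7 following irradiation. The labels call the steady-state mice untreated, whereas their columns in the count table are headed PBS (phosphate-buffered saline) with a day of 1, 4 or 7, so each of these libraries is named here by its column (PBS day 1 replicate 2, PBS day 4 replicate 2, PBS day 7 replicates 1 and 2). The study calls its libraries biological replicates, but whether mice were pooled for a library is not given in the sources used here. Genes were set in GRCm38 coordinates.

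Ionizing radiation breaks both strands of DNA. Cells rejoin the ends directly by nonhomologous end joining, in which the Ku heterodimer (Xrcc5 and Xrcc6) holds the ends, the kinase encoded by Prkdc is recruited, and the ligase Lig4 with its partners Xrcc4 and Nhej1 seals them. Alternatively, cells copy the sister chromatid by homologous recombination, which is open only after replication and uses Brca1, Brca2, Palb2 and Bard1. The Fanconi genes Fancd2 and Fanci encode the clamp that marks stalled replication forks, and Fanca and Fancb belong to the complex that modifies it. Breaks are sensed by the Nbn and Rad50 complex and by Parp1, and signalled by the kinases Atm and Atr to Chek2 and Chek1. End joining and sensing genes are transcribed through the cell cycle, whereas many recombination and Fanconi genes are transcribed mainly in S phase, often through E2F factors.

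Promoter sequence was given by RefSeq (GRCm38.p6) for 23 of the 32 genes, as 300 bases from 250 before to 50 after the start of transcription. The promoters of both Ku genes are printed because their RNA parted at day 4 and in day 7 replicates 2 and 3. This parting was not tested. The promoters of Brca1 and Brca2 are printed as a replication-linked pair of which only Brca1 passed a test. All are written 5′ to 3′ along the gene, and capitals mark an E2F word, here the reverse complement of TTTCCCGC.
Xrcc6 (chr15:82016119-82016418, plus strand): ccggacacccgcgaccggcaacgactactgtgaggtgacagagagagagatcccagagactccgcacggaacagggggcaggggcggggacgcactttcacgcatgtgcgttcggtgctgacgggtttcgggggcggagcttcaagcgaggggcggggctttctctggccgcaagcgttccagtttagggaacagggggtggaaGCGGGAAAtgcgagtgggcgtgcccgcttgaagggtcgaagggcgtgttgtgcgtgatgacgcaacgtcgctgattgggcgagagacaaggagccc
Xrcc5 (chr1:72307171-72307470, plus strand): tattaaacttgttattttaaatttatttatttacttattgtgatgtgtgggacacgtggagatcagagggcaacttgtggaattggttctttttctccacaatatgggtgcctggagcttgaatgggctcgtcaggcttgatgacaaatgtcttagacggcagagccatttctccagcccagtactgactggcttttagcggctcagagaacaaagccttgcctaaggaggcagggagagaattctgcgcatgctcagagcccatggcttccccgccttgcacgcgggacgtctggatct
Brca1 (chr11:101551906-101552205, minus strand): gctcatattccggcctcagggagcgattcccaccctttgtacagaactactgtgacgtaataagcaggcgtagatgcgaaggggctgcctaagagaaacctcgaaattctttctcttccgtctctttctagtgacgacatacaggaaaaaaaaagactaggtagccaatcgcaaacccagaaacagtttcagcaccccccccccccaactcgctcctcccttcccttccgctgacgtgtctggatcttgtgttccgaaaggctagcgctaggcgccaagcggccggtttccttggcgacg
Brca2 (chr5:150522371-150522670, plus strand): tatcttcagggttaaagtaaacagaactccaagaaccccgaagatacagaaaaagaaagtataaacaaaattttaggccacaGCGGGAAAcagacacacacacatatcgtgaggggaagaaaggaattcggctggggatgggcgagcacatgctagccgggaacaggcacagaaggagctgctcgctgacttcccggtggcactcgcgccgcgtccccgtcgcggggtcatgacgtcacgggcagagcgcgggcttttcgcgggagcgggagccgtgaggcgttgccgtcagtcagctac
The word began at position -46 from the start in the Xrcc6 promoter and at -168 in that of Brca2. No E2F word was found in the Xrcc5 and Brca1 windows. In the count table the Xrcc6 gene begins at 81987835 on chromosome 15, upstream of this start, so reads from an upstream first exon are counted with it.

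E2F words (TTTCCCGC, TTTGGCGC, TTTCGCGC or TTTGCCGC, on either strand) were found in 3 of the 12 replication-linked genes with a promoter (25.0%: Bard1, Brca2 and Rad51c). They were found in 3 of the 11 constitutive genes (27.3%: Xrcc6, Chek2 and Mdc1), against 2.6% of the 27025 genes with a promoter in the same source. The word CCAAT was held by 58.3% and 45.5% of the classes and 41.1% of all those genes. The cell cycle homology words TTTGAA or TTCGAA, none of which contains an E2F or CCAAT word, were held by 8.33% and 9.09%, against 21.7% of all. In these few promoters and by these exact words, E2F words were about as frequent in the constitutive promoters as in the replication-linked ones. The shares do not cover genes without a promoter, among them Exo1, Rad54b and Fancd2, which passed at day 7. A word cut off by the window is also missed: the Chek1 window ends in gcgggaa and was scored as holding none.

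Library totals lay between 15721866 and 52056896 counts (median 44078906), and no library was a copy of another. Values are counts scaled to the TMM-normalized library size (CPM), which compare libraries within a gene, or CPM per kilobase of exon (FPKM), which compare genes. Epithelial, fibroblast and endothelial markers were detected in every library. The 5 epithelial markers summed to 490 to 1673 CPM at steady state and 974 to 1609 at day 1. They summed to 1791 to 2507 CPM at day 4, wholly above steady state, and 434 to 798 at day 7. The fibroblast and endothelial sums overlapped with steady state on every day, but the fibroblast sum ran from 14261 to 107202 CPM at steady state alone. Thymocyte and erythroid markers were also present and moved with the conditions, whereas myeloid and B-lineage sums overlapped with steady state on every day. The summed level of 16 thymocyte markers (among them Cd3e, Cd4, Cd8a, Lck and Rag1) was 308 to 988 CPM at steady state, 143 to 179 at day 1 and 35.3 to 56.7 at day 4. At day 7 it was 272, 6372 and 2726 CPM in replicates 1, 2 and 3. Ptprc, which encodes CD45 itself, had 21.6, 606 and 224 CPM in these libraries, against 24.0 to 119 at steady state, 12.7 to 15 at day 1 and 4.07 to 4.54 at day 4. Of the 16 thymocyte markers, none was at 0 in any library. The 8 measured erythroid markers summed to 1573 to 3620 CPM at steady state, 292 to 977 at day 1, 5.23 to 7.49 at day 4 and 288 to 805 at day 7, with 2 of the 8 at 0 in at least 1 library of day 4. In bulk RNA, fewer cells of a type cannot be told apart from less RNA per cell.

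Median levels at steady state differed between the classes, whose ranges overlapped. The median was 0.496 FPKM for the replication-linked genes (range 0.0794 to 1.86) and 3.23 FPKM for the constitutive genes (0.742 to 14.0), against 2.30 FPKM for all genes tested. The highest level per length was that of Xrcc5 (14.0 ± 3.11 FPKM, SD, n = 4), followed by Nbn (13 ± 1.67), Parp1 (12.7 ± 2.26), Rbbp8 (10.3 ± 0.755), an end-resection factor, and Xrcc6 (8.61 ± 1.08). The first 4 of these overlapped with their next neighbour in the order. Among the replication-linked genes, Fancb (1.86 ± 0.523 FPKM), Xrcc2 (1.67 ± 0.245) and Xrcc3 (1.66 ± 0.291) stood highest, and Bard1, the partner of Brca1, lowest (0.0794 ± 0.0420). Bard1 was counted at only 2 reads in its lowest library, of day 1. The 4 steady-state libraries were not alike: 9 of the 16 replication-linked genes were highest in PBS day 4 replicate 2, which also had the highest sum over 26 replication and mitosis genes (972 CPM, against 463 to 660 in the others) but the lowest thymocyte sum (308 CPM).

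**Figure D1:**
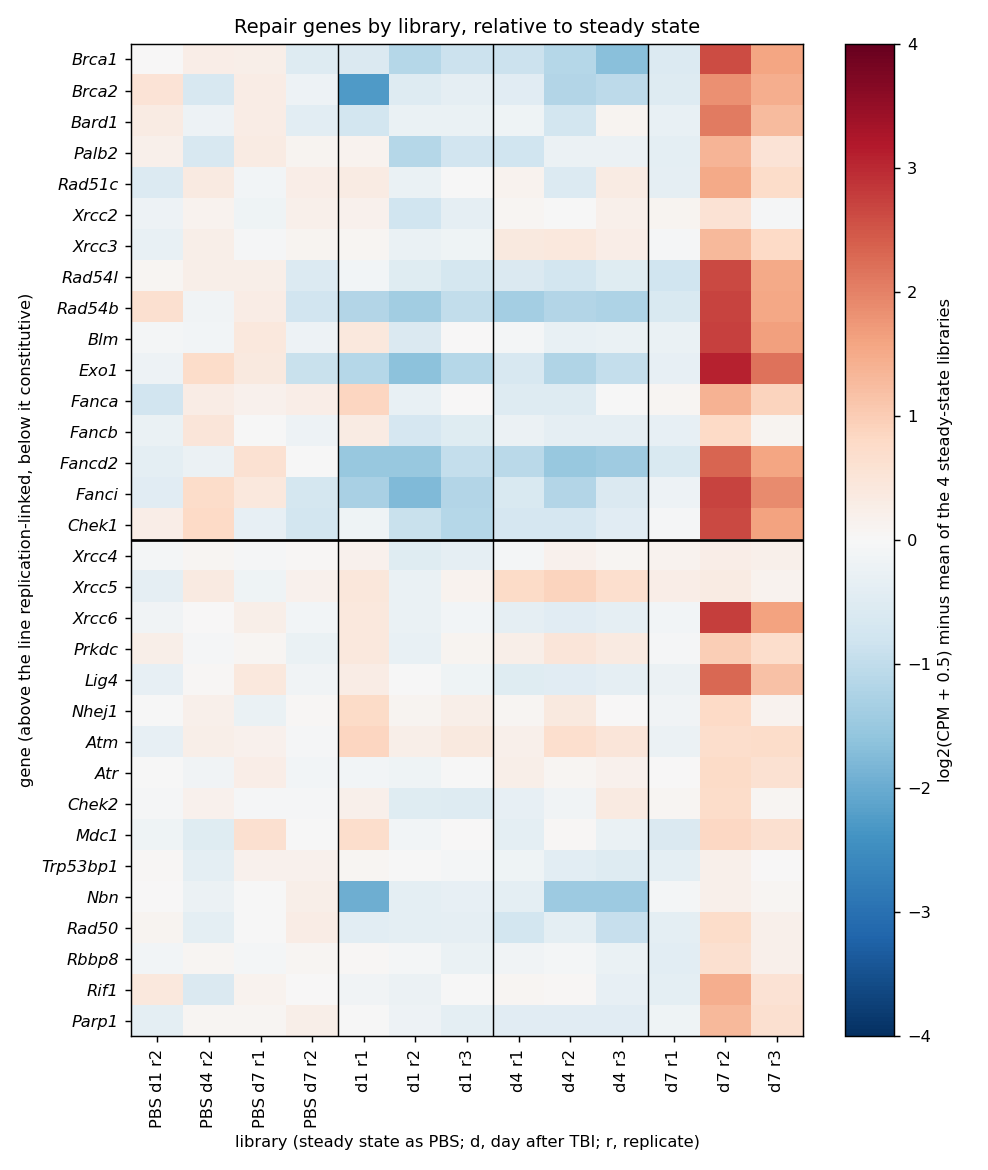
Level of each of the 32 genes (rows) in each of the 13 libraries (columns), as log2(CPM + 0.5) minus the mean of the 4 steady-state libraries, with replication-linked genes above the black line and constitutive genes below it. Day 7 replicate 2 had the highest value of all 13 libraries for 29 of the 32 genes, and day 7 replicate 1 stayed close to the earlier libraries.

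The first question was whether repair genes changed after TBI relative to steady state. No member passed the test (edgeR quasi-likelihood test, Benjamini-Hochberg adjusted p of 0.05 or less) at day 1, when 2.35% of all genes tested did (1.68% higher, 0.671% lower), nor at day 4 (0.29%, with 0.05% higher and 0.24% lower) or day 7 (0.005%). At an unadjusted p under 0.05 there were 4 members at day 1, 6 at day 4 and 16 at day 7, beside 17.2%, 13% and 13.5% of all genes. DESeq2 called 1 member lower at day 1 (Fanci, adjusted p = 0.032), 1 higher at day 4 (Xrcc5, adjusted p = 0.0258) and 8 higher at day 7, beside 7%, 3.23% and 5.41% of all genes. Without day 7 replicate 1, the edgeR count at day 7 was 12 (2.99% of all genes), and that at day 1 was 2 (Fancd2 and Fanci, both lower, beside 2.95% of all genes) although the library belongs to neither group there.

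The medians of the classes differed in these comparisons, but the ranges of their genes overlapped on each day. At day 7, for example, log2 fold changes ran from 0.23 to 2.26 for replication-linked and from -0.05 to 1.85 for constitutive genes. At day 1 the median log2 fold change was -0.81 for the replication-linked genes, with 14 of 16 below 0, and -0.06 for the constitutive genes, with 9 of 16 below 0, while the median of all genes tested was -0.10. At day 4 the medians were -0.71 and -0.14, with 14 and 10 of 16 below 0, and all genes stood at -0.13. At day 7 they were 1.67 and 0.36, with 16 and 15 of 16 above 0, and all genes at 0.00. These medians describe genes that share libraries and carry no test, and the classes were chosen with earlier results of these data known. Without day 7 replicates 2 and 3, the libraries with the most thymocyte marker RNA, the day 7 medians turned to -0.51 and -0.14.

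**Figure D2:**
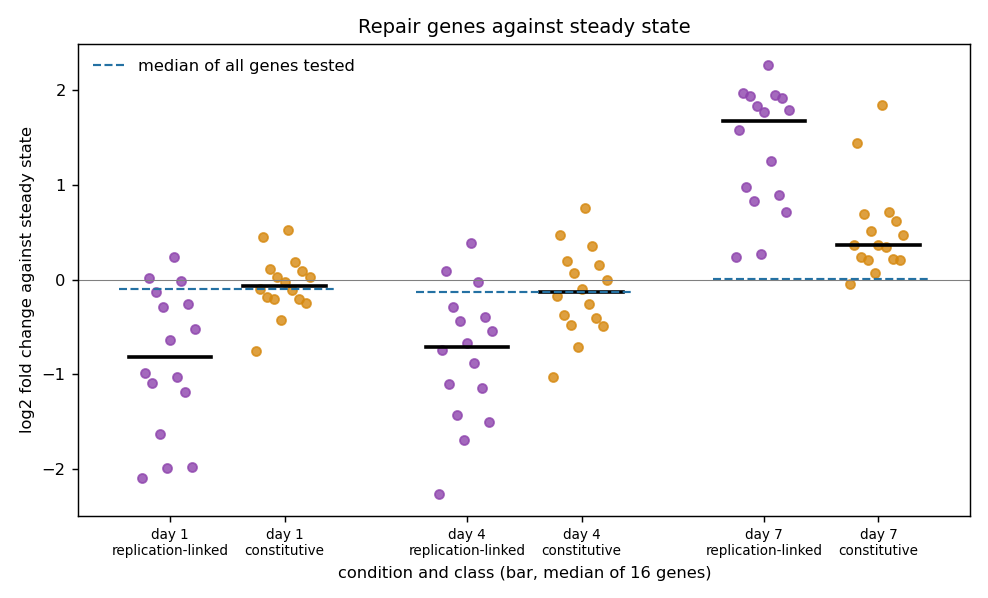
Log2 fold change of each gene against steady state (points) on each day after TBI, by class, with the median of 16 genes (black bars) and the median of all genes tested (dashed blue lines). Replication-linked genes had medians of -0.81, -0.71 and 1.67 and constitutive genes -0.06, -0.14 and 0.36.

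Without a test, 6 members had all 3 libraries of day 1 below all 4 of steady state, where 8.56% of all genes did: the replication-linked Brca1, Rad54b, Exo1, Fancd2 and Fanci, and Nbn. Only Atm, the kinase that answers breaks, lay wholly above (7.25% of all genes), with 22.4, 14.3 and 15.8 CPM against 9.56 to 14.2. At day 4, 8 members lay wholly below steady state, where 8.22% of all genes did, and most were now constitutive: Brca1, Rad54b and Fancd2, and Xrcc6, Lig4, Nbn, Rad50 and Parp1. Xrcc5 and Xrcc3 lay wholly above (6.44%). At day 7 only Xrcc4 did (2.82%), by a log2 fold change of 0.21, and no member lay wholly below (4.67%).

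The next question was how day 7 compared with the early days. At day 7, 8 members were higher than at day 1, and none was lower, beside 8.13% of all genes changed (3.68% higher, 4.45% lower). They were the recombination genes Brca1, Rad54l, Rad54b and Exo1, the Fanconi genes Fancd2 and Fanci, the checkpoint kinase gene Chek1, and a single constitutive gene, Xrcc6. Against day 4, 8 members were also higher and none lower, beside 3.9% changed (2.77% higher, 1.13% lower): Brca1, Rad54b, Exo1, Fancd2, Fanci, Chek1, Xrcc6 and Lig4. Thus 7 of 16 replication-linked and 1 of 16 constitutive genes passed against day 1, and 6 and 2 of 16 against day 4. Both comparisons use the same day 7 libraries. An unadjusted p under 0.05 was reached by 18 members in each, beside 23.9% and 18.7% of all genes. By DESeq2, 12 and 13 members passed, beside 14.7% and 9.6% of all genes. The medians against day 1 were 2.32 for replication-linked and 0.56 for constitutive genes (all genes 0.05), and against day 4 they were 2.45 and 0.36 (all genes 0.11). Between days 1 and 4 no member passed, beside 1.43% of all genes (0.355% higher, 1.07% lower). Only Xrcc5 had an unadjusted p under 0.05 there, DESeq2 called 0 members and 4.8% of all genes, and the medians were -0.05 and -0.16.

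These counts depended on single libraries. Against day 1 the count was 16 without day 7 replicate 1, 3 without replicate 2 and 4 without replicate 3, beside 9.4%, 2.57% and 3.2% of all genes. It was 2, 3 and 4 without day 1 replicates 1, 2 and 3, beside 2.28%, 3.78% and 3.45%. Against day 4 it was 15, 0 and 1 without day 7 replicates 1, 2 and 3, beside 7.26%, 0.692% and 1.18% of all genes, and 2, 0 and 0 without day 4 replicates 1, 2 and 3, beside 2.18%, 0.0725% and 0.0966%. With replicates 2 and 3 of day 7 both left out it was 0 in both comparisons, beside 0% and 0.0768% of all genes, the lone library being assumed to vary like the others. In each of these fits the share of all genes that passed was above or below that with all 13 libraries whenever the members' count was.

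Homologous recombination genes are described first. Library values are given for the gene with the highest level of each role and, chosen after their values were seen, for the genes that passed at day 7 and for some that did not pass. Brca1 (chr11:101488764-101551955), which directs breaks to recombination, had 4.01, 4.95, 4.82 and 2.61 CPM at steady state, 2.49, 1.53 and 1.99 at day 1, 2.00, 1.53 and 0.907 at day 4, and 2.56, 27.1 and 12.9 at day 7. All libraries of days 1 and 4 lay below all of steady state, and the lowest of day 7 lay just above those of days 1 and 4 but below steady state. Day 7 exceeded day 1 by 7.06-fold (log2 fold change 2.82 ± 0.84, SE, edgeR adjusted p = 0.0204) and day 4 by 9.75-fold (3.29 ± 0.90, adjusted p = 0.0202).

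Exo1 (chr1:175880581-175913489), an exonuclease that resects ends, showed the largest rise of the 32 from day 1 to day 7. It had 1.84, 4.00, 3.03 and 0.968 CPM at steady state, 0.735, 0.371 and 0.733 at day 1, 1.23, 0.685 and 0.907 at day 4, and 1.66, 22.3 and 11.7 at day 7. Day 7 did not overlap with day 1 or day 4, although its lowest library lay within the steady-state range. The log2 fold change was 4.24 ± 1.12 against day 1 (18.9-fold, edgeR adjusted p = 0.00971) and 3.68 ± 1.05 against day 4 (12.8-fold, adjusted p = 0.0254).

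Rad54b (chr4:11558922-11615805) and Rad54l (chr4:116094264-116123690) encode motor proteins of recombination. Rad54b had 2.52, 1.25, 1.87 and 0.629 CPM at steady state, 0.368, 0.232 and 0.482 at day 1, 0.258, 0.369 and 0.333 at day 4, and 0.759, 12.3 and 5.12 at day 7. All of its libraries at days 1 and 4 lay below the rest. It was higher at day 7 than at day 1 (log2 fold change 4.02 ± 1.12, edgeR adjusted p = 0.0134) and day 4 (4.19 ± 1.14, adjusted p = 0.0195). Its counts were low, between 4 and 23 reads in any library of days 1 and 4, and 35.9% of its exonic bases are shared with other annotated genes, whose reads are dropped by the counting used. Rad54l had 4.04, 4.65, 4.6 and 2.47 CPM at steady state, 3.48, 2.6 and 2.18 at day 1, 2.39, 2.11 and 2.59 at day 4, and 2.01, 26.6 and 11.8 at day 7. Its lowest day 7 library was the lowest of all 13, so the groups overlapped, and it passed against day 1 (2.29 ± 0.79, edgeR adjusted p = 0.0467) but not against day 4. Without day 7 replicates 2 and 3 its log2 fold change against day 1 was -0.40. Of the exonic bases of Rad54l, 15.4% are shared with another annotated gene.

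The other recombination genes did not pass in any comparison. Blm, a helicase that unwinds recombination intermediates, was close at day 7, with 2.17, 21.2 and 9.57 CPM against 1.67 to 3.87 at day 1 (log2 fold change 1.98 ± 0.72, edgeR adjusted p = 0.0623). Brca2, a mediator of recombination, had 2.24, 13.4 and 10.2 CPM at day 7 and 0.311, 2.23 and 2.56 at day 1, where replicate 1 stood far below the rest (2.34 ± 0.87, adjusted p = 0.0687). Palb2, Bard1 and Rad51c were likewise highest in day 7 replicate 2. Xrcc3, with the highest mean level of this role over all libraries (2.03 FPKM), had 3.55, 5.45, 4.37 and 4.84 CPM at steady state, 4.78, 3.67 and 3.98 at day 1, 6.13, 6.22 and 5.48 at day 4, and 4.35, 11.7 and 8.13 at day 7. Its day 4 libraries lay above every library of steady state and day 1, by a log2 fold change of 0.38 ± 0.33 against steady state (edgeR adjusted p = 0.583).

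**Figure D3:**
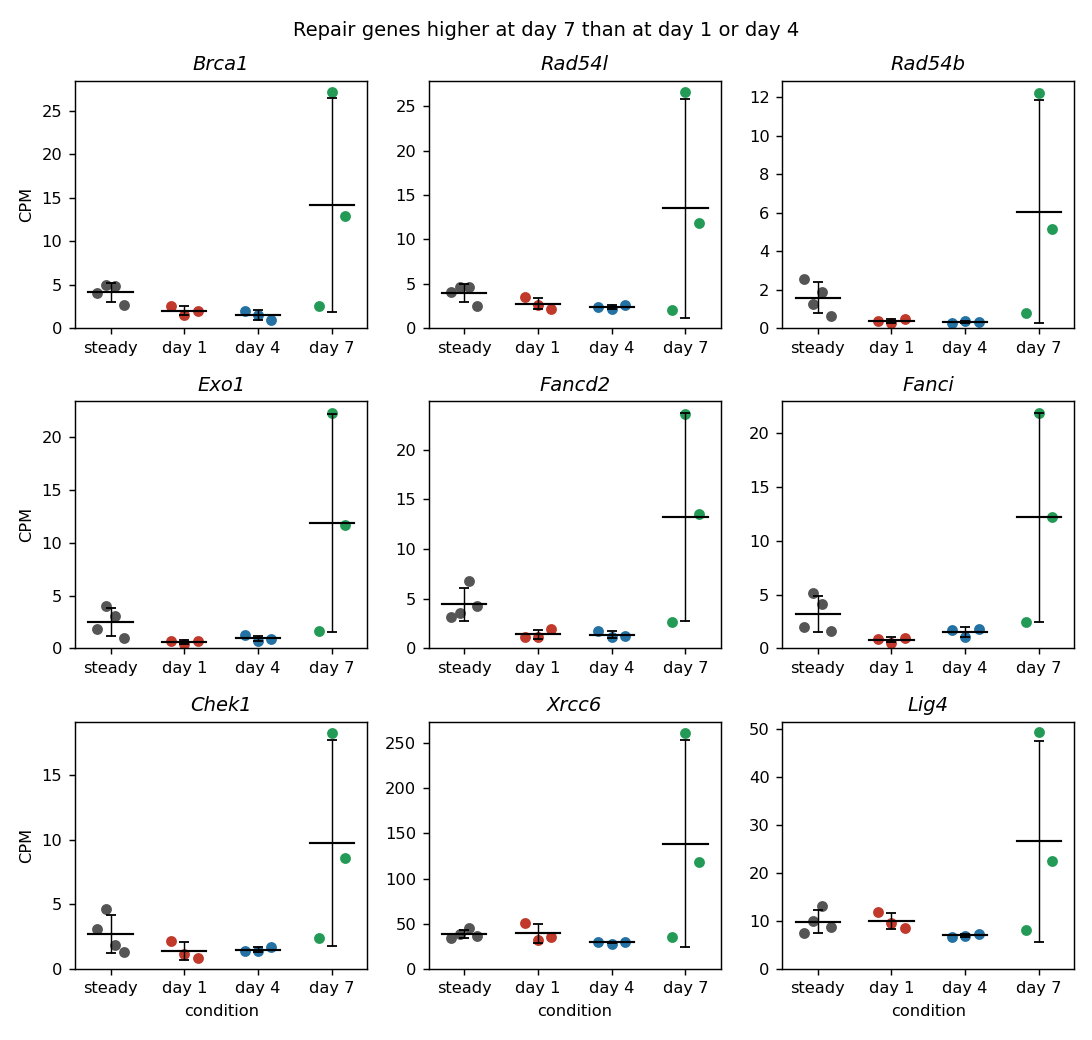
CPM in each library (points) of the 9 genes that were higher at day 7 than at day 1 or day 4, with the mean (line) and SD (bars; n = 4 at steady state and n = 3 at each day). In every panel 1 of the 3 day 7 libraries lay near the other groups; for Brca1 the 3 values were 2.56, 27.1 and 12.9 CPM.

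Of the Fanconi genes, those of the clamp moved and those of the core complex did not pass. Fancd2 (chr6:113531682-113597017) had 3.14, 3.58, 6.78 and 4.21 CPM at steady state, 1.16, 1.16 and 1.95 at day 1, 1.74, 1.16 and 1.26 at day 4, and 2.6, 23.5 and 13.6 at day 7. No library of days 1 or 4 reached the lowest of steady state, and no library of day 7 fell to them. Day 7 was higher than day 1 by a log2 fold change of 3.21 ± 0.87 (edgeR adjusted p = 0.0113) and than day 4 by 3.27 ± 0.88 (adjusted p = 0.0182). Fanci (chr7:79391929-79450264), its partner, had 2.00, 5.15, 4.11 and 1.6 CPM at steady state, 0.905, 0.511 and 1.01 at day 1, 1.74, 1.02 and 1.78 at day 4, and 2.46, 21.9 and 12.2 at day 7. It was lowest at day 1 and overlapped with steady state at day 4. Its rise from day 1 had the smallest adjusted p of all members (log2 fold change 3.89 ± 1.01, edgeR adjusted p = 0.00869), and it was 3.02 ± 0.90 above day 4 (adjusted p = 0.0317), with 16% of its exonic bases shared with another gene.

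Fancb, the most abundant of the role per length, had 4.47, 7.83, 5.31 and 4.6 CPM at steady state, 6.90, 3.25 and 3.73 at day 1, 4.52, 4.07 and 4.07 at day 4, and 4.27, 9.89 and 5.88 at day 7. Every day overlapped with steady state, and its log2 fold changes against steady state were -0.26, -0.40 and 0.27 in day order (edgeR adjusted p = 0.755, 0.62 and 0.886). Fanca was lower in PBS day 1 replicate 2 (2.85 CPM) than in the other steady-state libraries (5.98 to 6.60 CPM), and reached 5.56, 14.6 and 10.1 CPM at day 7.

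Chek1 (chr9:36708482-36727065) was the only sensing or checkpoint gene that passed. It had 3.07, 4.63, 1.87 and 1.31 CPM at steady state, 2.15, 1.11 and 0.859 at day 1, 1.36, 1.39 and 1.68 at day 4, and 2.40, 18.2 and 8.60 at day 7. Days 1 and 4 overlapped with the low end of steady state, and day 7 lay above both. The log2 fold changes at day 7 were 2.82 ± 0.86 against day 1 (edgeR adjusted p = 0.0239) and 2.72 ± 0.85 against day 4 (adjusted p = 0.0417). Chek2, which receives the signal of Atm, ranged only from 8.92 to 21.8 CPM over the 13 libraries.

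Parp1, which binds broken ends and signals with poly(ADP-ribose), was the most abundant sensing gene over all libraries per length. It had 50.2, 69.5, 70.1 and 78.3 CPM at steady state, 65.4, 57.7 and 50.9 at day 1, 47.8, 48.6 and 48.2 at day 4, and 58.8, 163 and 103 at day 7. The day 4 libraries were close together and wholly below steady state, and those of day 7 wholly above day 4. Its log2 fold change was -0.48 ± 0.31 at day 4 against steady state (edgeR adjusted p = 0.474) and 1.17 ± 0.38 at day 7 against day 4 (adjusted p = 0.0531).

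Nbn, of the sensing complex, differed among libraries of the same day. It had 32.8, 27.9, 32.4 and 38.3 CPM at steady state, 7.98, 24.7 and 26.0 at day 1, 25.0, 11.6 and 11.7 at day 4, and 31.0, 37.5 and 34.6 at day 7. Its 3 low values were those of day 1 replicate 1 and day 4 replicates 2 and 3, and day 7 returned to the steady-state range. Rad50, its partner, had 24.1, 24.3 and 24.8 CPM at day 1 and 19.1, 24.3 and 16.8 at day 4, against 24.4 to 39.9 at steady state. Neither passed at day 4 (log2 fold change -1.03 ± 0.44 and -0.71 ± 0.31, edgeR adjusted p = 0.303 and 0.314). Atr, Mdc1, Trp53bp1, Rbbp8 and Rif1 kept log2 fold changes between -0.38 and 0.19 at days 1 and 4 against steady state, and between -0.05 and 0.71 at day 7.

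The end joining genes parted within the Ku pair. Xrcc6 (chr15:81987835-82040085) had 34.3, 38.6, 45.3 and 35.8 CPM at steady state, 50.9, 31.7 and 35.1 at day 1, 29.8, 28.0 and 29.7 at day 4, and 35.2, 262 and 118 at day 7. Day 4 lay wholly below steady state, and at day 7 replicates 2 and 3 lay far above every other library while replicate 1 stayed within the steady-state range. Day 7 was higher than day 1 (log2 fold change 1.82 ± 0.61, edgeR adjusted p = 0.0419) and day 4 (2.25 ± 0.66, adjusted p = 0.0294), but without day 7 replicates 2 and 3 the difference from day 1 was -0.10.

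Xrcc5 (chr1:72307421-72394952), which encodes the other Ku subunit, had 27.3, 44.9, 31.2 and 39.2 CPM at steady state, 47.6, 29.3 and 38.5 at day 1, 59.5, 65.0 and 55.9 at day 4, and 41.8, 44.1 and 38.5 at day 7. It was highest at day 4, wholly above every other group, and its day 7 libraries stood within the steady-state range. The log2 fold change at day 4 against steady state was 0.75 ± 0.27 (1.69-fold, edgeR adjusted p = 0.194), the smallest p of the 32 genes in that comparison. Per length, the ratio of Xrcc6 to Xrcc5 was 0.491 to 0.83 at steady state, 0.521 to 0.618 at day 1 and 0.245 to 0.303 at day 4. At day 7 it was 0.481, 3.38 and 1.76 in replicates 1, 2 and 3. The ratio was formed after the values were seen and was not tested.

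**Figure D4:**
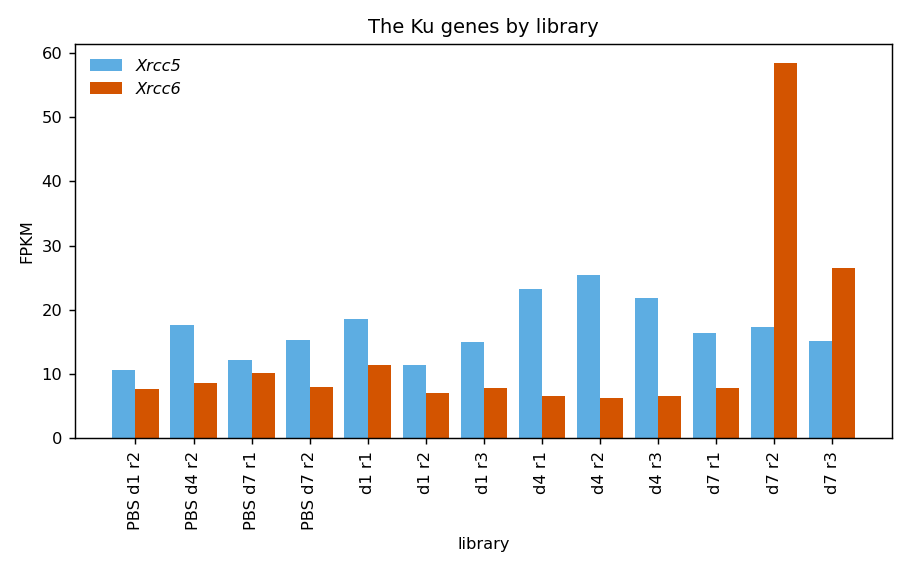
FPKM of Xrcc5 and Xrcc6, which encode the Ku heterodimer, in each of the 13 libraries (bars; d, day after TBI; r, replicate). Xrcc6 exceeded Xrcc5 only in day 7 replicates 2 (58.4 against 17.3 FPKM) and 3 (26.5 against 15.1 FPKM).

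Lig4, the ligase of end joining (chr8:9969049-9977686), had 7.5, 9.95, 13 and 8.67 CPM at steady state, 11.9, 9.52 and 8.52 at day 1, 6.71, 6.90 and 7.33 at day 4, and 8, 49.3 and 22.5 at day 7. Day 4 lay below all other libraries, and day 7 replicates 2 and 3 above them. It passed at day 7 against day 4 (log2 fold change 1.93 ± 0.61, edgeR adjusted p = 0.045) but not against day 1 (1.41 ± 0.56, adjusted p = 0.0881). Its partners moved less: Xrcc4 had 12.9, 14.2 and 13.7 CPM at day 7 against 11.0 to 12.4 at steady state, and Nhej1 2.75, 5.76 and 3.44 against 2.50 to 3.65. Prkdc had 12.6, 26.1 and 21.5 CPM at day 7 against 10.6 to 15.2 at steady state (0.62 ± 0.30, edgeR adjusted p = 0.328).

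Most repair genes differed widely among the 3 day 7 libraries. These libraries stood in the order replicate 2, 3, 1 from high to low for 28 of the 32 genes, including 15 of the 16 replication-linked genes, and replicate 2 was the highest of all 13 libraries for 29 of 32, including all 16 replication-linked genes. The exceptions were constitutive: Atm, Xrcc5 and Nbn. From replicate 1 to replicate 2 the median difference on the log2 scale was 2.54 for replication-linked and 0.99 for constitutive genes. Over the same 2 libraries it was 2.75 for the 26 replication and mitosis genes and 4.48 for the 16 thymocyte markers. In replicate 1 the replication-linked genes stood above the range of days 1 and 4 for 6, within it for 9 and below it for 1, and none stood above the steady-state range.

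**Figure D5:**
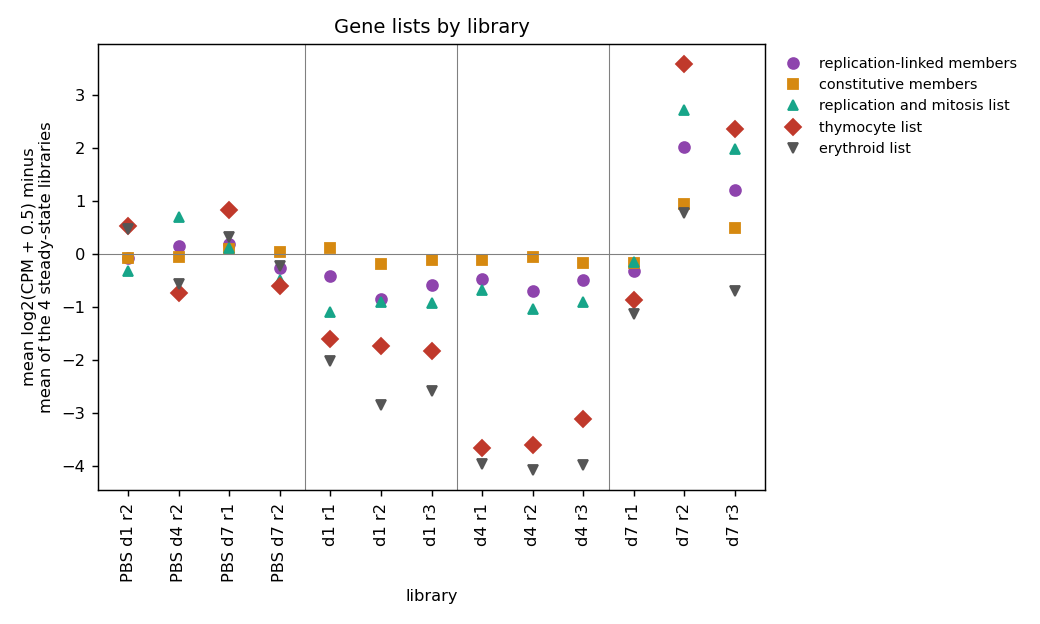
Mean log2(CPM + 0.5) over each gene list in each of the 13 libraries, minus the mean of the 4 steady-state libraries, for replication-linked and constitutive repair genes and for lists of replication and mitosis, thymocyte and erythroid genes. In day 7 replicates 2 and 3 the thymocyte list stood highest, followed by the replication list and the replication-linked repair genes.

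In day 7 replicates 2 and 3, most repair genes and the thymocyte markers were both high. At day 1 against steady state the median log2 fold change was -2.02 for the thymocyte markers and -0.81 for the replication-linked genes. The medians were -3.51 and -0.71 at day 4 against steady state, and -1.36 and -0.05 from day 1 to day 4. Among the steady-state libraries, PBS day 4 replicate 2 had the lowest thymocyte sum and the highest replication-linked sum (65.9 CPM, against 49.7 to 63.8 CPM). By mean log2 level, however, PBS day 7 replicate 1 was the highest of these libraries for both lists (5.42 for thymocyte markers, 2.00 for replication-linked genes). Whether the lists moved together was not tested. The replication and mitosis sum was also high at day 7 in replicates 2 and 3, at 3802 and 2282 CPM against 637 in replicate 1. With the thymocyte marker level as a covariate, 0 members passed against day 1 and 0 against day 4, and the counts were the same with the erythroid or the replication level. Few genes of any kind passed in most of these fits: of all genes, 1.97% against day 1 and 0.12% against day 4 with the thymocyte level, 5.76% and 0% with the erythroid level, and 0% and 0.06% with the replication level. In the fit with the thymocyte level, the log2 fold change of Xrcc6 was -0.46 against day 1 and -0.99 against day 4. Since these levels differed between the same libraries as the day, the difference by day cannot be told apart from the difference by level. Likewise, a tag in the column names (m0) was carried by the day 7 libraries only and cannot be told apart from day 7. Within 1 family of tags, where day 7 and day 4 had 2 libraries each, the medians were 1.53 for replication-linked and 0.30 for constitutive genes. Within another, with 1 library of each condition compared, they were 1.71 and 0.24 at day 7 against day 1, but -0.02 and 0.17 at day 1 against steady state, with 7 of the 16 replication-linked genes above 0.

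Genes outside the 32 were read in the same fit. Mki67, a proliferation marker, had 9.21, 6.65, 16.6 and 6.00 CPM at steady state, 0.792, 2.09 and 1.63 at day 1, 2.45, 1.04 and 0.574 at day 4, and 4.29, 102.5 and 87.6 at day 7. It was lower at days 1 and 4 without overlap and passed at day 7 against day 1 (log2 fold change 5.44 ± 1.40, edgeR adjusted p = 0.00814). Mcm5, of the replicative helicase, had 24.6 CPM on average at day 1 and 113 at day 7 (2.20 ± 0.69, edgeR adjusted p = 0.0294). Its day 7 libraries had 26.4, 205 and 107 CPM, and the first of these lay within the day 1 range (19.1 to 34.8 CPM). Cdkn1a, the p53 target that encodes a cell cycle inhibitor, rose at day 1 from a mean of 193 to 674 CPM (1.80 ± 0.45, edgeR adjusted p = 0.00694). Of 22 p53 targets, 6 rose at day 1 and none fell by edgeR, beside 1.68% and 0.671% of all genes. DESeq2 called 9 higher and 1 lower, beside 7% of all genes in either direction.

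Of 55 other repair genes, 1 was higher at day 1 than at steady state, beside 1.68% of all genes. At day 7, 13 were higher and 1 lower than at day 1, beside 3.68% and 4.45% of all genes. Compared with day 4, 10 were higher at day 7 and none lower, beside 2.77% and 1.13%. By edgeR none passed at day 4 or day 7 against steady state, beside 0.29% and 0.005% of all genes. An unadjusted p under 0.05 was reached there by 9 and 15, beside 13% and 13.5% of all genes. DESeq2 called 0 and 10, beside 3.23% and 5.41%. Leaving out 1 library of day 1 or day 7 gave 0 to 17 higher at day 7 than at day 1. The lowest was without day 1 replicate 1 and the highest without day 7 replicate 1, where 2.28% and 9.4% of all genes changed. Against day 4, leaving out 1 library gave 0 (without day 4 replicate 2 or 3, or day 7 replicate 2) to 18 (without day 7 replicate 1). Of all genes, 0.0725%, 0.0966%, 0.692% and 7.26% changed in these fits, in the same order. The gene that rose at day 1 was Mad2l2, of the shieldin complex that limits resection (log2 fold change 1.26 ± 0.31, edgeR adjusted p = 0.00646), and it was also the one that fell from day 1 to day 7 (-0.91 ± 0.29, adjusted p = 0.0321). The 3 largest rises from day 1 to day 7 were those of Clspn, a mediator of Chek1 activation (4.22 ± 1.14), the nuclease Dna2 (3.92 ± 1.12) and the helicase Recql4 (3.73 ± 1.03). The largest from day 4 were those of Clspn (4.52 ± 1.18), Rad51ap1 (3.47 ± 1.03) and Eme1 (3.43 ± 0.92). In the list of 26 replication and mitosis genes, 17 rose from day 1 to day 7 and 16 from day 4, and none fell. Of the 16 thymocyte markers, 16 were higher in both comparisons. Of all genes, 3.68% and 2.77% were higher in these comparisons.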

How the data were processed

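Bulk RNA-seq counts of 13 libraries of CD45- thymic cells were used (4 at steady state, 3 on each of 3 days after TBI). For these samples, CD45+ cells were depleted with magnetic beads, red cells were lysed and the remaining cells were sorted. The authors trimmed reads with Trimmomatic 0.38, aligned them with STAR 2.7.0e to GRCm38.p5 and counted them per gene with featureCounts 1.6.3 at default settings, per the labels and the Methods. The deposited values are whole-number counts without normalization. By default, featureCounts ignores strand and drops reads that overlap several genes or align to several places. The deposited table also holds gene lengths and coordinates. Groups came from the sample labels. Steady-state columns do not carry the label numbers and were used as a group.

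Differences between conditions were tested in edgeR 4.0.16 under R 4.3.3 (TMM normalization, filterByExpr with a minimum count of 10, all 13 libraries in 1 fit with condition, quasi-likelihood F-test). The p-values were adjusted over 19984 genes by Benjamini-Hochberg, with 0.05 as the threshold. Each standard error is the size of a log2 fold change divided by the normal deviate of its p. Plotted levels use a pseudocount of 0.5. P-values measure only the spread between these libraries. The steps were tested on simulated data in which genes varied less between libraries (dispersion 0.05) than in these data (0.177). That test cannot show how the steps perform at the spread of these libraries.

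Library values were given for members that passed against steady state (none did) and for the member of each role with the highest level. For reference, Mki67 was given by library. Mcm5, Cdkn1a and Ptprc were given by group means or ranges, with the day 7 libraries of Mcm5 and Ptprc. The 3 largest changes among other repair genes were named. Library values of members that passed between days, and of Atm, Blm, Brca2, Fanca, Nbn, Nhej1, Prkdc, Rad50 and Xrcc4, were added after the results were seen. The 32 members, their classes and all lists were chosen with earlier results of these data known. The alternatives were DESeq2 1.42.0, RLE normalization, no filter, at least 10 counts in every library, a fit of only the conditions compared, a replicate block, covariates (thymocyte, erythroid or replication level, and tag family), each library left out, and, added after seeing the data, day 7 replicates 2 and 3 left out together. Sequences and plots were handled in Python 3.11.15 with pandas 2.3.3 and matplotlib 3.10.9. Other experiments of the study were not analysed here.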

Additional observations from a re-analysis of the deposited data

Results flagged for a closer look

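Among the 4 steady-state libraries, the levels of 36 genes (the 32 repair genes and 4 reference genes) were checked for 1 library standing apart, by the ratio of its gap to the whole range (Dixon's 95% criterion). Chance gives about 1 in 20, that is 1.8 of 36, and 3 passed. They were Blm, at 3.81 CPM in replicate 1 of PBS day 7 (others 2.32 to 2.54), Fanca, at 2.85 CPM in replicate 2 of PBS day 1 (others 5.98 to 6.60), and Chek2, at 14.5 CPM in replicate 2 of PBS day 4 (others 12.4).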

How the results depend on the processing

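Counts of members that passed moved as follows. With DESeq2 they were 1 at day 1, 1 at day 4 and 8 at day 7 against steady state (7%, 3.23% and 5.41% of all genes). They were 13 at day 7 against day 4 (9.6%). Without a filter, 3 passed at day 7 against steady state (Blm, Exo1 and Xrcc6), beside 1.66% of all genes. With the erythroid level as a covariate 3 passed there (Blm, Xrcc6 and Lig4), beside 1.95% of all genes. For day 7 against day 1 the count of 8 (8.13% of all genes) became 11 without a filter (5.29%), 4 with at least 10 counts in every library (6.23%; Brca1, Fancd2, Fanci and Chek1, with 12 of the 16 calls in both day 7 comparisons tested), 4 with only these conditions in the fit (6.23%), 4 with the replicate block (3.28%) and 5 with the tag family as a covariate (7.09%). Against day 4 the count of 8 (3.9%) became 12 without a filter (3.34%), 4 with at least 10 counts in every library (2.51%; Brca1, Fancd2, Fanci and Xrcc6), 0 with only these conditions (2.16%), 0 with the replicate block (0.475%) and 6 with the tag family (4.27%). It was 0 in both comparisons with the thymocyte, erythroid or replication level as a covariate and without day 7 replicates 2 and 3 together. Leaving out 1 library gave 0 to 2 at day 1 against steady state, beside 1.22% to 4.03% of all genes. At day 7 it gave 0 to 12 against steady state, beside 0% to 2.99%. It gave 2 to 16 at day 7 against day 1, beside 2.28% to 10.3%, and 0 to 15 against day 4, beside 0.0725% to 7.26%. Correlations of deviations between same-numbered libraries ran from -0.84 to 0.27. Deviations within a group of 3 libraries sum to 0, so this check cannot settle whether the numbers are a pairing. The block changed no count other than those above.

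For the genes that passed, the direction reversed only with the thymocyte, erythroid or replication covariate or without day 7 replicates 2 and 3. With the thymocyte level, the log2 fold changes at day 7 were -0.82 for Rad54l and -0.46 for Xrcc6 against day 1, and against day 4 -0.55 for Brca1, -0.98 for Rad54b, -0.46 for Exo1, -0.48 for Fancd2, -0.39 for Fanci, -0.99 for Xrcc6, -1.01 for Lig4 and -0.33 for Chek1. With the erythroid level they were -0.21 for Rad54l and -0.41 for Xrcc6 against day 1, and against day 4 -0.49 for Brca1, -1.22 for Rad54b, -0.16 for Fancd2, -1.40 for Xrcc6, -1.33 for Lig4 and -0.37 for Chek1. With the replication level they were -0.43 for Brca1, -1.24 for Rad54l, -0.68 for Xrcc6 and -0.013 for Chek1 against day 1, and against day 4 -0.15 for Exo1, -0.20 for Fanci, -0.15 for Xrcc6, -0.28 for Lig4 and -0.0071 for Chek1. Without day 7 replicates 2 and 3 they were -0.40 for Rad54l and -0.10 for Xrcc6 against day 1. The causes were not tested. Depth limits Bard1 and Rad54b most, with as few as 2 and 4 counts in a library.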
